A study of Zea mays with 13 samples.

Results

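The genes described here were long as judged by coverage of whole chromatin, sheared chromatin sequenced without an antibody. Gene models were chosen by their whole-chromatin counts, which had to be 40 to 120 in a window of 1 kb at the start of transcription and at least 10 times as many over the whole gene. Of 43789 gene models, 2636 met this rule (6.02%), and they are called long genes below. They were set against 23866 short genes, which had the same 40 to 120 counts in the 1 kb window and a ratio under 3. Together with the genes between these limits, 40873 gene models fell in the window range. The ratio stands in for gene length and is not itself a length, and lengths from an annotation were not used here.

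The data were chromatin immunoprecipitation sequencing (ChIP-seq) counts per gene from immature leaves, still wrapped, of the maize inbred line B73, raised in a greenhouse to the V5 to V6 stage. WST7 plants had 25% of the disposable water for 10 days and were collected after a further 7 days of recovery, and NST7 plants had 75% of the disposable water and were collected at the same time as WST7. WST0 and NST0 plants had the same watering levels, 25% and 75%, and were collected at the end of the 10 days. Water of the same salt content was given to all groups, and whether tissue of several plants was pooled is not given in the sources used here. Each of the 3 marks had 1 library for each of the 4 groups, and the single whole-chromatin library came from control plants at the end of the 10 days. Because every mark and group has a single library, values are given without an SD, and no pair of groups can be tested. The gene IDs carry no names here, so that the tissue could not be checked against its markers and no function is given for any gene.

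H3K4me3, a trimethylation of histone H3, sits at the 5′ ends of genes that are transcribed or poised for it, and H3K9ac, an acetylation of the same histone tail, marks the start regions of active genes. H3K27me3 is laid down by Polycomb complexes and in plants usually covers the whole body of repressed genes, many of them developmental. In maize, long genes owe much of their length to introns that hold transposable elements, and such genes are often broadly expressed.

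The ratio that chose the long genes had a median of 13.7, with a 10th percentile of 10.5 and a 90th percentile of 24.9. Their median count of whole chromatin in the 1 kb window, 73 in long genes and 65 in short genes, was close, whereas over the whole gene it was 1007.5 in long genes and 70.5 in short genes. Most long genes lay near the limit, with 2126 at a ratio of 10 to 20 and 510 at 20 or more. The highest ratio, 168.35, belonged to Zm00001d026864, with 6734 whole-gene counts and 40 window counts, and the next, 131.6, to Zm00001d006402, with 10529 and 80 counts. Just inside the limit were Zm00001d007637 (510 whole-gene and 51 window counts) and Zm00001d008314 (660 and 66). Just outside were Zm00001d010305 (829 and 83) and Zm00001d040499 (1139 and 114). On each side of the limit, 1 of these genes had more H3K4me3 than the other in all 4 libraries. In WST7, NST7, WST0 and NST0 the members Zm00001d008314 and Zm00001d007637 had 35.6, 37.5, 36.3 and 43.1 CPM and 0.657, 0.98, 1.42 and 1.05 CPM. The nonmembers Zm00001d010305 and Zm00001d040499 had 23.3, 21.1, 19.2 and 20.4 CPM and 4.43, 4.17, 4.63 and 1.65 CPM in the same libraries. CPM stands for counts scaled to a common library size of 1000000, with TMM scaling over the 4 libraries of a mark. A further 186 genes with a ratio of 10 or more had under 40 window counts and 10 had over 120, and these were not members.

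Total counts ran from 2793985 to 6876219 for H3K4me3, from 1152884 to 1856159 for H3K9ac and from 1612935 to 1969485 for H3K27me3. Whole chromatin had 3055058 counts in the 1 kb windows and 10976995 over whole genes. The median long gene therefore had 224, 151, 96 and 241 H3K4me3 counts in WST7, NST7, WST0 and NST0, and 35, 36, 46 and 59 H3K9ac counts, so that small differences were least detectable for H3K9ac. In WST7, NST7, WST0 and NST0 the median long gene had 158, 135, 147 and 149 H3K27me3 counts. The NST0 library of H3K4me3 stood apart at genes of low signal, where its 10th percentile over long genes was 1.95 CPM, against 2.96 CPM in WST7, 2.94 CPM in NST7 and 2.85 CPM in WST0.

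Long genes carried more H3K4me3 than short genes in all 4 libraries. The median long gene had 36.8 CPM in WST7, 37.0 CPM in NST7, 34.2 CPM in WST0 and 36.1 CPM in NST0. The median short gene had 6.73 CPM in WST7, 6.37 CPM in NST7, 6.76 CPM in WST0 and 6.14 CPM in NST0. Long genes were thus 5.05 to 5.88 times higher at the median, but only 1.35 to 1.41 times higher at the 90th percentile, so the sets differed in how many genes were low more than in how high the highest genes were. Averaged over the 4 libraries on the log2 scale with 0.5 counts added, the long median stood 2.44 above the short median. The interval from the order statistics of the long genes at 95% was 2.39 to 2.49. It leaves out the spread of the short genes. Like the intervals of marked shares below, it treats genes as independent and does not cover variation between libraries. Since this is bulk tissue, fewer cells with a mark and less mark per cell cannot be told apart in any of these levels.

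H3K9ac was also higher at long genes, by 2.12 to 2.95 times at the median. It reached 30.3 CPM in WST7, 28.8 CPM in NST7, 28.7 CPM in WST0 and 32.5 CPM in NST0 at long genes, against 13 CPM in WST7, 13.6 CPM in NST7, 13.1 CPM in WST0 and 11 CPM in NST0 at short genes. The fold was largest in NST0, where short genes had their lowest and long genes their highest median of the 4 libraries. On the log2 scale the difference of medians was 1.32 (1.28 to 1.35). H3K27me3 counts were 10.4 to 10.6 times higher, with medians of 80.1, 83.4, 81.8 and 80.1 CPM at long genes in WST7, NST7, WST0 and NST0, against 7.60, 8.03, 7.79 and 7.53 CPM at short genes.

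These counts behaved differently with the ratio. Between long genes at a ratio of 20 or more and those at 10 to 20, the median level of H3K4me3 differed by 0.93 to 0.96 times and that of H3K9ac by 0.97 to 1.0 times, whereas H3K27me3 was 2.15 to 2.20 times higher and whole-gene whole chromatin stood at 1960.5 and 925.5 counts. Among long genes the rank correlation (Spearman) with the ratio was 0.004 for H3K4me3, 0.011 for H3K9ac and 0.797 for H3K27me3, over 2636 genes that share these libraries. The window in which the authors counted each mark is not given in the sources used here. H3K4me3 and H3K9ac were therefore set against the 1 kb window of whole chromatin and H3K27me3 against the whole gene, an assumption that decides every enrichment below.

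**Figure D1:**
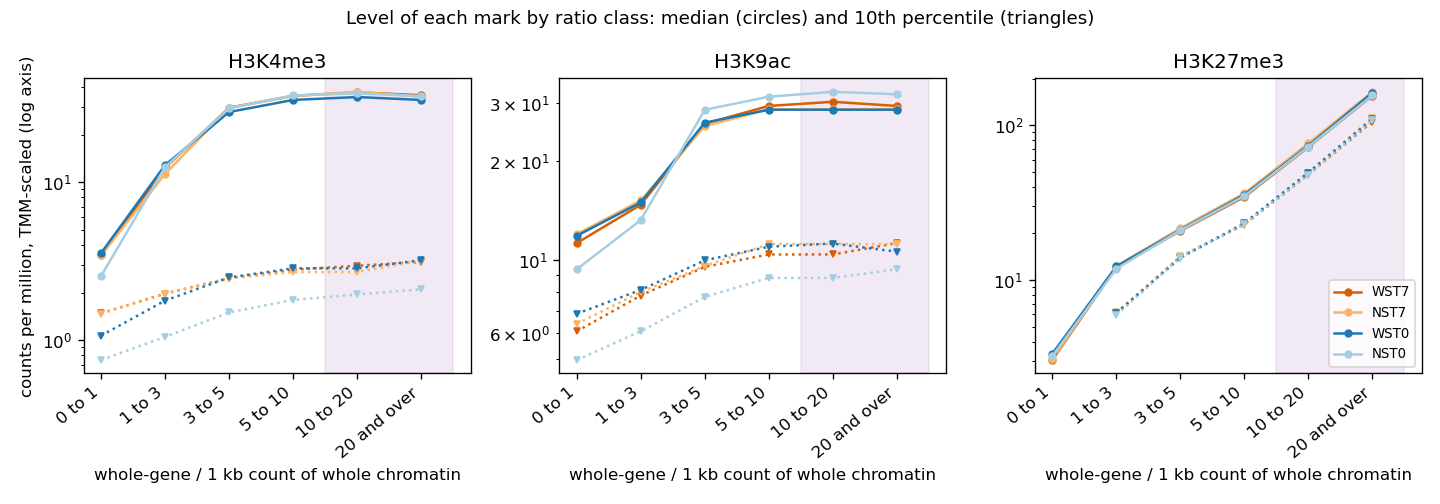
Level of each mark (CPM, log axis) against the ratio of whole-gene to 1 kb counts of whole chromatin, with 1 line per library; circles are medians, triangles 10th percentiles (not drawn where 0), and the shaded classes are the long genes. H3K4me3 and H3K9ac level off from a ratio of 5 upward, while H3K27me3 keeps climbing, by 2.15 to 2.20 times between the last classes.

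The distribution of levels had 2 modes for H3K4me3 in both sets of genes, and long genes fell mostly in the upper mode. To count as marked, a gene with 20 or more counts of whole chromatin had to lie 2-fold or more over the 25th percentile of enrichment over whole chromatin, in each of the 4 libraries of the mark. By this rule 2145 of 2636 long genes (81.4%, exact binomial interval at 95% of 79.8 to 82.8%) and 48.8% of short genes carried H3K4me3. Whole chromatin enters both this rule and the choice of members, so these shares are descriptions. Along the ratio, the marked share was 35.3% below 1, 59.7% at 1 to 3, 75.8% at 3 to 5, 80.6% at 5 to 10, 81.6% at 10 to 20 and 80.4% at 20 or more. Above a ratio of 5 the share thus lay between 80.4 and 81.6%.

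**Figure D2:**
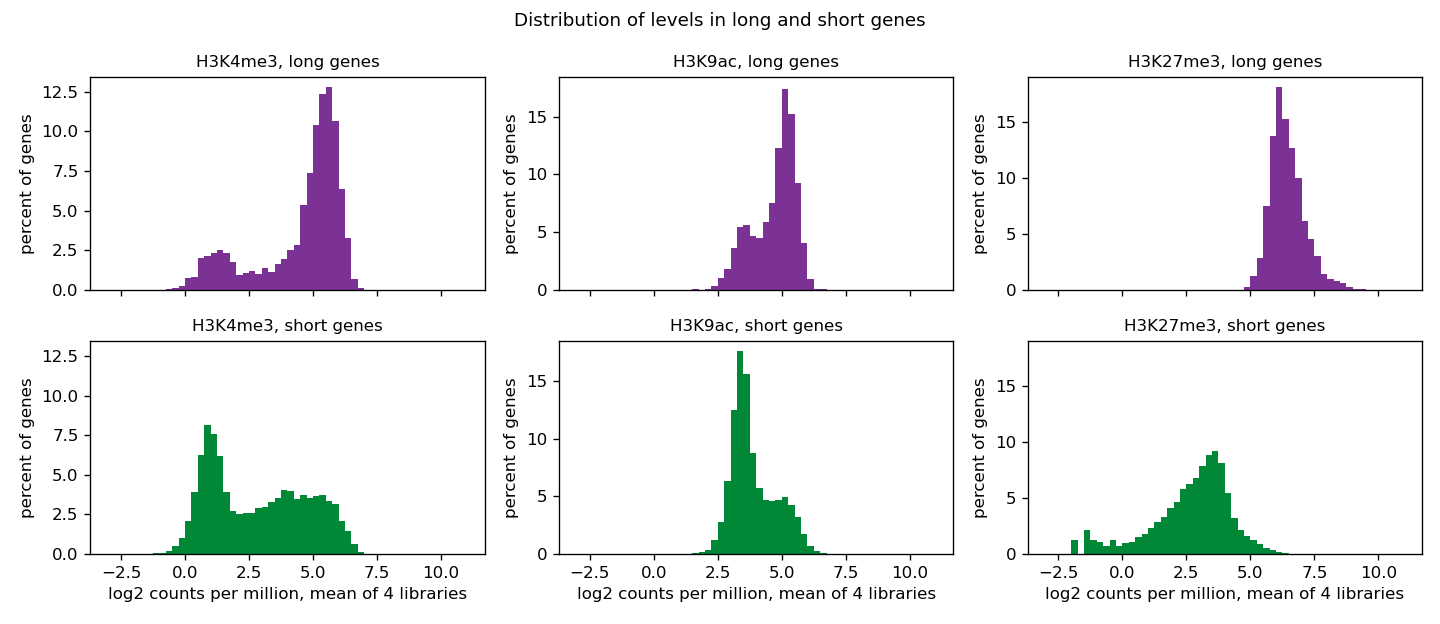
Percent of long genes (upper row) and short genes (lower row) by level of each mark, as the mean log2 CPM of the 4 libraries. Long genes sit mainly in the upper H3K4me3 mode, where the median marked long gene has about 41.6 CPM in WST7, and short genes are spread over both modes.

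Marked long genes also held more H3K4me3 than marked short genes, while unmarked genes of both sets were close in level. At marked long genes the median was 41.6 CPM in WST7, 41.9 CPM in NST7, 39.5 CPM in WST0 and 41.9 CPM in NST0. Marked short genes had 22.8, 22.8, 24.2 and 25.0 CPM in WST7, NST7, WST0 and NST0. The 491 long genes without the mark had 2.79, 2.70, 2.85 and 1.8 CPM in WST7, NST7, WST0 and NST0, against 2.46, 2.45, 2.49 and 1.5 CPM at unmarked short genes. The lowest value of each unmarked set was in NST0, the library that also stood apart in its 10th percentile.

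H3K9ac marked 1319 long genes (50.04%, 48.1 to 52.0%) and 19.9% of short genes, and levelled off in the same way, with 50.6% at a ratio of 5 to 10, 51.1% at 10 to 20 and 45.7% at 20 or more. H3K9ac was almost always found with H3K4me3: 1313 long genes (49.8%) carried both of these marks and no H3K27me3, and 3 carried H3K9ac alone. H3K4me3 alone was found at 804 long genes (30.5%) and none of the marks at 480 (18.2%). Among genes with H3K4me3, H3K9ac was present at 61.4% of long and 40.9% of short genes, where only the 10925 short genes with 20 or more whole-gene counts of whole chromatin were counted. Over all long genes the levels of both active marks had a rank correlation of 0.731 (2636 genes of the same tissue), against 0.820 over short genes.

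H3K27me3 was rare at long genes once whole-gene coverage was taken into account. All 2636 long genes but only 20492 of the 23866 short genes had the 20 whole-gene counts of whole chromatin that the rule asks for, and the short genes with fewer were left out of these shares. The mark was found at 36 long genes (1.37%, 0.958 to 1.89%) and at 16.0% of these short genes, and its share fell along the ratio as 16.1, 16.0, 5.36, 2.69, 1.46 and 0.98% from the lowest class to the highest. Of these 36, 25 carried H3K4me3 as well, 3 carried all of the marks and 8 carried H3K27me3 alone. Among H3K4me3-marked genes, 28 of 2145 long genes (1.31%) and 2531 of the 10925 short genes with enough whole-gene counts (23.2%) also met the rule for H3K27me3. The whole-gene count that sets the background here is also what chose the long genes. Short genes also had fewer H3K27me3 counts, with medians of 13 to 15 over the libraries against 135 to 158 at long genes. The part of this depth in the shares was not tested.

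The choice of background decided these shares. With the whole gene as background the H3K4me3 share of long genes was 10.2% and the H3K9ac share 0%, with no gene of 2636 (exact binomial upper limit at 95% of 0.14%). With the 1 kb window as background all 2636 long genes counted as marked by H3K27me3. The log2 enrichment of H3K27me3 over the whole gene varied less among long genes than among short genes. Its interquartile range over the 4 libraries was 0.32 to 0.36, against 0.96 to 1.01 among short genes. The median long gene had 135 to 158 H3K27me3 counts in these libraries, and the median short gene 13 to 15. The part of these low counts in the wider spread was not tested. The median enrichment at long genes was -0.23 in WST7, -0.15 in NST7, -0.19 in WST0 and -0.23 in NST0. Short genes had medians of 0.15, 0.21, 0.17 and 0.14 in WST7, NST7, WST0 and NST0, above those of long genes. The divisor is the whole-gene count, which also chose both sets and came from a single whole-chromatin library. The 4 libraries are therefore not independent evidence of this order.

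Long genes without H3K4me3 had a slightly higher H3K27me3 enrichment than those with it. The median was 0.02 in WST7, 0.14 in NST7, 0.08 in WST0 and 0.06 in NST0 at the 491 unmarked genes, and -0.27, -0.20, -0.23 and -0.27 at the 2145 marked genes in WST7, NST7, WST0 and NST0. In whole-chromatin counts the unmarked genes had a median of 916 over the whole gene and 65 in the window, and the marked genes 1028 and 74. The ratio was nearly equal, with a median of 13.6 at unmarked and 13.8 at marked genes, so that the ratio itself did not separate long genes with and without H3K4me3. The difference in H3K27me3 is small beside the 2-fold limit of the rule for marked genes.

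The 36 long genes with H3K27me3 had medians of 199.6 CPM in WST7, 150.1 CPM in NST7, 200.6 CPM in WST0 and 204.9 CPM in NST0, where all long genes together had medians of 80.1 to 83.4 CPM. Their H3K4me3 was low, at 12.4, 11, 11.4 and 10.4 CPM in WST7, NST7, WST0 and NST0. NST7 was the lowest library for H3K27me3 at these genes. Their median ratio was 13 and their median window count 54.5, against 73 for all long genes.

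The longest genes by coverage showed how separate these quantities are. Zm00001d026864, at the highest ratio, had 1.15, 1.23, 0.356 and 0.449 CPM of H3K4me3 in WST7, NST7, WST0 and NST0, which is 7, 5, 1 and 3 counts, and carried none of the marks by the rule. Its 650, 695, 661 and 684 CPM of H3K27me3 in WST7, NST7, WST0 and NST0 came with 6734 whole-gene counts of whole chromatin. Zm00001d006402, at the next ratio, had H3K4me3 of 48.4, 53.7, 53.7 and 52.3 CPM in WST7, NST7, WST0 and NST0 and was marked by both active marks. It also had the highest H3K27me3 count of any long gene, 2507, 2037, 2706 and 2508 counts in WST7, NST7, WST0 and NST0, without reaching the enrichment that counts as marked. Zm00001d020644, second in H3K27me3 level with 2030, 1608, 2063 and 2007 counts in the same order of libraries, is 1 of the 3 long genes called for all of the marks.

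The highest H3K4me3 levels were at Zm00001d049208, with 110, 115, 118 and 124 CPM in WST7, NST7, WST0 and NST0, and at Zm00001d015203, with 101, 105, 127 and 126 CPM. These values lay above the 90th percentile of long genes, which was 64.0 to 68.2 CPM over the libraries. No pair of libraries met the rule of size described below at either gene, though Zm00001d015203 fell over time in the additive model also described below, by a fitted -0.30 ± 0.09 on the log2 scale (SE; edgeR quasi-likelihood adjusted p = 0.0337). H3K9ac was highest at Zm00001d052348, with 111, 107, 79.2 and 86 CPM in WST7, NST7, WST0 and NST0, and at Zm00001d035757, with 84.9, 75.9, 83 and 105 CPM. No pair of H3K9ac libraries met the rule at these genes.

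Differences between groups were read with a rule of size, since no pair of groups has a replicate. It asked for a difference of 1.5-fold or more in scaled counts and for an exact conditional binomial interval of the ratio, at an error level of 0.001, that did not contain 1. Genes needed 40 or more counts summed over the 4 libraries of the mark. Of the long genes, 2471 could be read for H3K4me3, 2592 for H3K9ac and all 2636 for H3K27me3. The intervals given with single genes below are at 95% and cover counting error only, not the variation between plants or immunoprecipitations.

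At the end of the drought (WST0 over NST0), few long genes differed in any mark. For H3K4me3, 5 long genes were higher (0.202%) and 18 lower (0.728%) in WST0 than in NST0, where 1.2% of all features were higher and 0.808% lower. For H3K9ac, 5 were higher (0.193%) and 25 lower (0.965%), against 0.436% and 0.855% of all features. For H3K27me3, 4 were higher (0.152%) and 0 lower, against 0.109% in each direction of all features. In all, 56 long genes (2.12%) met the rule for any mark, against 3.03% of all features that could be read for any mark. The balance of directions for H3K4me3 and H3K9ac changed when a trend along enrichment was subtracted. When the running median of the ratio along enrichment, taken over all features, was subtracted, 10 long genes were higher and 7 lower for H3K4me3, where 0.82% and 0.458% of all features were. For H3K9ac, 5 were then higher and 5 lower, against 0.327% and 0.271% of all features, and for H3K27me3 3 were higher and 1 lower, against 0.089% and 0.0801%.

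Of the 25 long genes lower in H3K9ac, 20 were H3K9ac-marked. These were 1.52% of marked long genes, against 2.28% of marked short genes and 1.95% of all marked features. The median log2 ratio of marked long genes was -0.18 and that of marked short genes -0.17, so both sets lay below 0 as scaled. With the trend subtracted, 2 of the 1319 marked long genes were lower (0.152%) and 0.295% of marked short genes, against 0.271% of all features, marked or not. In H3K4me3 the unmarked long genes had a median of 0.48 and unmarked short genes 0.47, with values above 0 at 75.5% and 75.0% of them, beside the low signal of NST0 at unmarked genes. The part of this library in these medians was not tested.

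Single long genes with the largest drought ratios at T0 mostly had low counts. Zm00001d036261 had 12.45 CPM of H3K4me3 in WST0 and 2.84 CPM in NST0, which is 35 and 19 counts in libraries of unequal depth, with 7.23 CPM in WST7 and 4.90 CPM in NST7. Its log2 ratio at T0 was 2.11 (1.28 to 3.02), and it carried none of the marks by the rule. Zm00001d036613, marked by H3K4me3, had 8.18 CPM in WST0 and 16.9 CPM in NST0, a ratio of -1.02 (-1.76 to -0.39), while WST7 and NST7 were alike at 14.5 and 13.7 CPM. For H3K9ac, Zm00001d053803 had 26 counts in WST0 and 5 in NST0 (2.45, 1.15 to 4.29), and Zm00001d006296 had 18 and 57 (-1.46, -2.34 to -0.70). For H3K27me3, the largest ratio was at Zm00001d024310, with 43.4 CPM in WST0 and 21.5 CPM in NST0 (1.0, 0.44 to 1.60), against 29.9 CPM in WST7 and 29.7 CPM in NST7. In each of these genes, the pair of T7 libraries did not meet the rule.

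After recovery (WST7 over NST7), few long genes differed in H3K4me3 and H3K9ac, and 13 differed in H3K27me3. For H3K4me3, 0 were higher and 2 lower (0.0809%) of 2471, where 0.0982% and 0.0869% of all features were. For H3K9ac, 3 were higher (0.116%) and 1 lower (0.0386%), against 0.0775% and 0.116% of all features. For H3K27me3, 7 were higher (0.266%) and 6 lower (0.228%), against 0.425% and 0.13% of all features. With the trend subtracted, the H3K27me3 genes were 3 higher and 4 lower, against 0.0831% and 0.101% of all features. In all, 19 long genes (0.721%) met the rule for any mark at T7, against 0.78% of all features, and none met it for more than 1 mark. Among short genes, 1 of the 14969 read for both H3K9ac and H3K27me3 met it for these marks, in opposite directions, and 0 for H3K4me3 with either other mark.

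Both H3K4me3 genes were lower in WST7. Zm00001d034045 had 28.4 CPM in WST7 and 45.1 CPM in NST7 (-0.67, -0.97 to -0.36), and Zm00001d008188 had only 4 counts in WST7 and 16 in NST7 (-2.45, -4.62 to -0.95). The largest H3K9ac ratios were at Zm00001d044053, with 22 counts in WST7 and 4 in NST7 (2.44, 1.02 to 4.57), and at Zm00001d015495, with 28 and 68 (-1.15, -1.85 to -0.51). For H3K27me3, Zm00001d030248 had 94.7 CPM in WST7 and 56.8 CPM in NST7 (0.73, 0.37 to 1.11). It was the only long gene to meet the rule for the same mark and direction at both times, with 84.0 CPM in WST0 and 54.3 CPM in NST0 (0.63, 0.26 to 1.01), and it carried none of the marks by the rule. Short genes meeting the rule in this way were as scarce, with 1 of 18245 for H3K4me3, 1 of 22685 for H3K9ac and 0 of 15290 for H3K27me3. Zm00001d012604 went the other way at T7, with 39.0 CPM in WST7 and 68.0 CPM in NST7 (-0.80, -1.24 to -0.37), while WST0 and NST0 had 68.5 and 53.8 CPM.

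Of the 7 long genes higher in H3K27me3 at T7, 5 were among the 36 with the mark (13.9%), where 1.92% of marked short genes and 2.74% of all marked features were higher. At these 36 the median log2 ratio of WST7 over NST7 was 0.36, and 33 were above 0. The same genes had a median of 0.03 for WST7 over WST0 and -0.07 for WST0 over NST0, but -0.37 for NST7 over NST0, with 30 below 0 and 9 meeting the rule as lower (25.0%), where 2.27% of marked short genes and 4.49% of all marked features were lower. Marked short genes had fewer counts, with a median of 21.8 CPM in WST7 and 17.9 CPM in NST7. Both of the large medians involve NST7, and the 2 comparisons share that library. Short genes with the mark had a median of 0.28 for WST7 over NST7, so this was not confined to long genes. With the trend subtracted, the medians of the 36 genes were 0.08 for WST7 over NST7 and -0.11 for NST7 over NST0, and no long gene among them met the rule.

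Over the 7 days, H3K4me3 was lower at T7 in a smaller share of long genes than of short genes, with either watering. In stressed plants (WST7 over WST0), 11 long genes were higher (0.445%) and 9 lower (0.364%), against 0.555% higher and 1.64% lower of all features. In well-watered plants (NST7 over NST0), 11 were higher (0.445%) and 7 lower (0.283%), against 1.28% and 1.81% of all features. With the trend subtracted, 11 long genes were higher and 9 lower in stressed plants, against 0.497% and 1.52% of all features, and 17 were higher and 5 lower in well-watered plants, against 0.91% and 1.13%. Of short genes, 1.81% were lower in stressed plants and 2.04% were lower in well-watered plants. These pairs of libraries share no library with each other. The difference between long and short genes was not tested, since each pair has 1 library on a side.

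The contrast lay in genes that carry H3K4me3. Of 2145 marked long genes, 8 (0.373%) were lower in WST7 than in WST0. This compares with 307 of 11644 marked short genes (2.64%) and 2.07% of all marked features. In NST7 against NST0, 7 marked long genes (0.326%) and 362 marked short genes (3.11%) were lower, where 2.40% of all marked features were. The median log2 ratios were 0.05 at long and -0.08 at short genes in stressed plants, and -0.01 at long and -0.12 at short genes in well-watered plants. Ratios were below 0 at 41.4% of long and 60.6% of short marked genes in stressed plants, and at 51.9% of long and 65.4% of short marked genes in well-watered plants. These shifts of the median are small beside the 1.5-fold limit, while the shares beyond that limit differed several-fold.

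The sets differed in the same direction among genes with similar summed counts. At 300 to under 1000 summed counts, 0.458% of 1309 marked long genes and 3.44% of 6070 marked short genes were lower in WST7 than in WST0, and 0.306% of long and 4.42% of short genes were lower in NST7 than in NST0. At 1000 counts or more, the shares were 0.295% of 678 long and 2.31% of 2078 short genes in stressed plants, and 0.295% of long and 2.60% of short genes in well-watered plants. With the running median along enrichment subtracted, 0.373% of long and 2.65% of short marked genes were lower in stressed plants, and 0.233% and 1.90% in well-watered plants. The medians were then 0.05 at long and -0.06 at short marked genes in stressed plants and 0.05 at long and -0.05 at short marked genes in well-watered plants. Genes called higher were about as frequent in both sets. They were 0.513% of long and 0.558% of short marked genes in stressed plants and 0.466% and 0.429% in well-watered plants. Of all marked features, 0.673% were higher in stressed and 0.535% in well-watered plants.

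Along the ratio the share of marked genes that were lower was 3.08% below 1, 2.42% at 1 to 3, 0.987% at 3 to 5, 1.03% at 5 to 10, 0.403% at 10 to 20 and 0.244% at 20 or more in stressed plants. In well-watered plants it declined step by step, as 3.56, 2.89, 1.36, 0.865, 0.403 and 0% in the same classes, and no gene of the 410 in the last class was lower. The share thus fell along the ratio, except between 3 to 5 and 5 to 10 in stressed plants, and in the last class it rests on few genes. The genes at a ratio of 3 to 10 already lay nearer to the long genes than to the short ones.

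**Figure D3:**
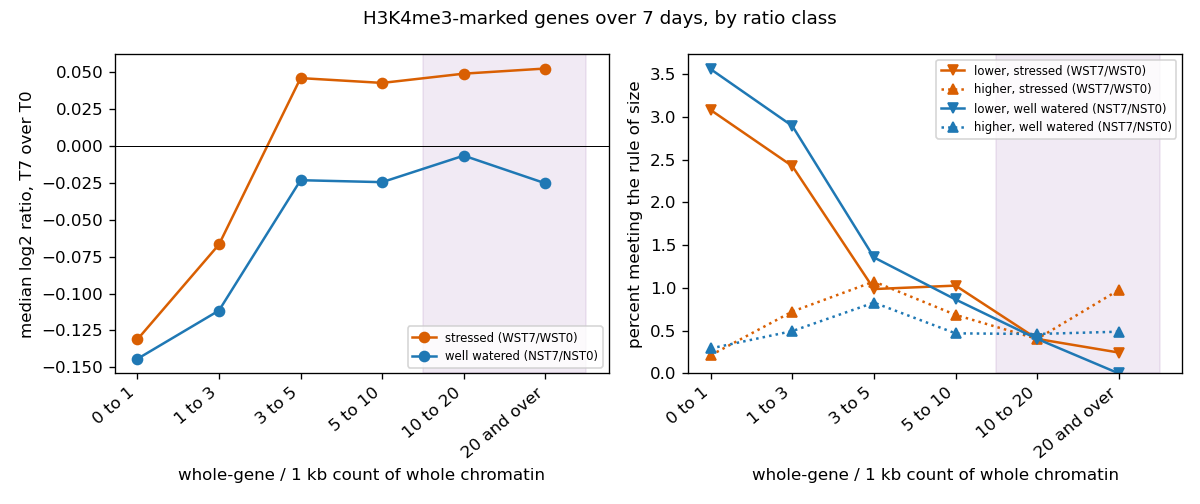
H3K4me3-marked genes at T7 over T0, by ratio of whole-gene to 1 kb counts of whole chromatin: median log2 ratio (left) and percent of genes meeting the rule of size as lower or higher (right), for stressed and well-watered plants; the shaded classes are the long genes. The share lower falls to 0.403% at a ratio of 10 to 20 with either watering, and the share higher follows no steady course along the ratio.

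Only a model of all 4 libraries of a mark leaves a residual spread to test against. That residual is the difference between the watering effects at T0 and T7, not variation between plants or immunoprecipitations. The SE and p values of the model therefore do not measure such variation. The additive model of watering and time was fitted over all features by edgeR's quasi-likelihood test with Benjamini-Hochberg adjustment at 0.05, and each gene has 1 residual degree of freedom of its own. In this model H3K4me3 rose over time at 12 long genes (0.486%) and fell at 32 (1.30%) of 2471, against 0.869% and 3.03% of all features. Of 18245 short genes, 68 rose (0.373%) and 572 fell (3.14%). DESeq2 in the same design called 0 of all features for time, long genes included, so the calls were made by edgeR alone. The unadjusted p of DESeq2 was under 0.05 at 9 of 2471 long genes and at 403 of 35654 of all features. Calls for watering were 0 for every mark at long genes, where H3K4me3 had 0.0028%, H3K9ac 0.00242% and H3K27me3 0% of all features called. For watering, the unadjusted p of edgeR was under 0.05 at 129, 85 and 30 long genes in H3K4me3, H3K9ac and H3K27me3. These were out of 2471, 2592 and 2636 long genes, beside 2362 of 35654, 1654 of 41294 and 1200 of 33860 of all features. DESeq2 called 0 of all features for watering in each mark. For time, edgeR called 0 long genes in H3K9ac and in H3K27me3, against 0% of all features. Its unadjusted p was under 0.05 at 87 of 2592 and 43 of 2636 long genes, beside 1876 of 41294 and 1327 of 33860 of all features. DESeq2 called 0 of all features for time in both marks.

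The 32 long genes that fell in H3K4me3 were all H3K4me3-marked, as were 2145 of the 2471 long genes in the model. Of the 32, 21 (65.6%) also carried H3K9ac and none carried H3K27me3. These shares are near those of all H3K4me3-marked long genes, at 61.4% and 1.31%. Their median log2 ratio of H3K4me3 was -0.40 in stressed plants and -0.47 in well-watered plants. The genes were chosen by H3K4me3 in these same libraries, which set the direction of these medians. Their H3K9ac had medians of -0.10 in stressed plants and -0.35 in well-watered plants, against 0.08 and -0.08 at all long genes. H3K9ac-marked long genes had 0.09 in stressed and -0.16 in well-watered plants. H3K27me3 of the 32 genes was near 0, at -0.07 in stressed and 0.03 in well-watered plants. The 12 genes that rose, chosen in the same way, had H3K4me3 medians of 0.60 in stressed plants and 0.57 in well-watered plants. Their H3K9ac stood at -0.07 in stressed and 0.02 in well-watered plants. No H3K9ac value of these genes was called in the additive model.

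Among the genes that fell, Zm00001d029719 had 54.2 CPM of H3K4me3 in WST7, 54.7 CPM in NST7, 84.3 CPM in WST0 and 79.2 CPM in NST0. Both T7 libraries lay below both T0 libraries, and the fitted log2 change was -0.59 ± 0.10 (SE; edgeR quasi-likelihood adjusted p = 0.000376). Zm00001d018295 had 52.2, 42.9, 68.0 and 73.8 CPM in WST7, NST7, WST0 and NST0, with a change of -0.59 ± 0.11 (edgeR quasi-likelihood adjusted p = 0.00132). Among those that rose, Zm00001d034045 had 28.4 CPM in WST7, 45.1 CPM in NST7, 18.1 CPM in WST0 and 16.0 CPM in NST0. The fitted change was 1.14 ± 0.19 (edgeR quasi-likelihood adjusted p = 0.000145), and the T7 libraries were also those that differed with watering, as given above. Zm00001d000524, at a ratio of 115.35 and with both active marks, had 54.9, 58.3, 33.1 and 38.0 CPM in WST7, NST7, WST0 and NST0 and a change of 0.66 ± 0.13 (edgeR quasi-likelihood adjusted p = 0.00123). DESeq2 gave an adjusted p of 1 for each of these 4 genes.

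The largest single ratios over time were again mostly at genes of few counts. Zm00001d010989, unmarked, had 24 counts of H3K4me3 in NST7 and 12 in NST0 (1.68, 0.65 to 2.84), and Zm00001d030285 had 7.11 CPM in NST7 and 14.5 CPM in NST0 (-1.01, -1.68 to -0.42). In stressed plants the extremes were Zm00001d034948, with 39.1 CPM in WST7 and 19.6 CPM in WST0 (0.99, 0.57 to 1.45), and Zm00001d029136, with 13 counts in WST7 and 21 in WST0 (-1.79, -2.93 to -0.74). At Zm00001d034948 the value of WST0 was the low one, since NST7 and NST0 had 38.2 and 31.3 CPM, and the gene rose over time in the additive model by 0.58 ± 0.16 (SE; edgeR quasi-likelihood adjusted p = 0.0327).

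H3K9ac and H3K27me3 differed over time at few long genes. For H3K9ac, 6 long genes were higher (0.231%) and 1 lower (0.0386%) in WST7 than in WST0, against 0.133% and 0.177% of all features, and 8 were higher (0.309%) and 14 lower (0.54%) in NST7 than in NST0, against 0.722% and 0.714%. For H3K27me3, 2 were higher and 2 lower (0.0759% each) in WST7 than in WST0, against 0.121% and 0.0768%, and 3 were higher (0.114%) and 9 lower (0.341%) in NST7 than in NST0, against 0.0975% and 0.665%. With the trend subtracted, H3K9ac was higher at 5 and lower at 2 long genes in stressed plants, against 0.102% and 0.196% of all features, and higher at 4 and lower at 5 in well-watered plants, against 0.245% and 0.279%. H3K27me3 was then higher at 2 and lower at 3 in well-watered plants, against 0.086% and 0.142% of all features. As scaled, all 9 long genes lower in NST7 were H3K27me3-marked. That with the smallest ratio, Zm00001d013259, had 390 CPM of H3K27me3 in WST7 and 447 CPM in WST0, and 281 CPM in NST7 and 503 CPM in NST0 (-0.84, -1.01 to -0.68). At this gene H3K4me3 was 25.0 CPM in NST7 and 12.1 CPM in NST0 (1.04, 0.61 to 1.48), so as scaled the marks went in opposite directions there. With the trend subtracted, 0 of the 36 H3K27me3-marked long genes, this gene included, met the rule for H3K27me3 in NST7 over NST0. H3K4me3 of Zm00001d013259 rose over time in the additive model by 0.95 ± 0.21 (SE, edgeR quasi-likelihood adjusted p = 0.00584).

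Other genes at the ends of these lists had smaller ratios or few counts. H3K27me3 was higher at Zm00001d006417 in NST7, at 64.9 CPM, than in NST0, at 36.6 CPM (0.82, 0.37 to 1.29), and at Zm00001d044193 in WST7, at 94.7 CPM, than in WST0, at 57.3 CPM (0.72, 0.37 to 1.09). At Zm00001d012604 it was lower in WST7, at 39.0 CPM, than in WST0, at 68.5 CPM (-0.81, -1.24 to -0.39). The WST7 library decided both of the T7 and time differences of that gene. For H3K9ac, Zm00001d016436 had 18 counts in NST7 and 4 in NST0 (2.57, 1.10 to 4.73), Zm00001d007468 had 10 and 47 (-1.64, -2.85 to -0.69), and Zm00001d012891 had 29 counts in WST7 and 12 in WST0 (1.71, 0.73 to 2.85). Such counts leave wide intervals.

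Zm00001d005804 was the only long gene to meet the rule for 2 marks in a drought comparison. Of the 2457 long genes read for both active marks at T0, 1 was higher and 0 lower in both. Such overlaps were also rare at short genes, where 7 were higher and 4 lower in both of 18030. Its H3K4me3 was 23.2 CPM in WST7, 27.9 CPM in NST7, 47.3 CPM in WST0 and 18.0 CPM in NST0, and its H3K9ac 26.0, 45.5, 66.1 and 28.1 CPM in WST7, NST7, WST0 and NST0. WST0 was the highest library for both marks. The log2 ratio of WST0 over NST0 was 1.40 (1.03 to 1.77) for H3K4me3 and 1.23 (0.74 to 1.74) for H3K9ac, while H3K27me3 had 58.4 CPM in WST0 and 63.5 CPM in NST0 (-0.12, -0.51 to 0.27). Neither active mark met the rule at T7.

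Medians over all long genes shifted little between libraries, and several of the shifts were smaller with the trend along enrichment subtracted. The largest was H3K9ac at the end of the drought, with a median log2 ratio of -0.11 at long and 0.11 at short genes for WST0 over NST0. NST7 over NST0 had -0.08 at long and 0.10 at short genes, and both comparisons share NST0. After the running median along enrichment was subtracted, long minus short was -0.03 and -0.01 in these comparisons. For H3K27me3 the largest shift, WST7 over NST7, was -0.07 at long and 0.05 at short genes, and -0.02 long minus short with the trend subtracted. For H3K9ac in WST7 over WST0, long minus short was 0.07 with the trend subtracted and 0.09 as scaled, and in WST7 over NST7 it was 0.04 and 0.07. For H3K4me3 over time in stressed plants, long minus short was 0.09 with the trend subtracted, 0.11 as scaled and 0.10 as scaled with no filter on counts. In well-watered plants it depended on these settings, at 0.10 with the trend subtracted, 0.02 as scaled and -0.09 as scaled with no filter on counts.

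**Figure D4:**
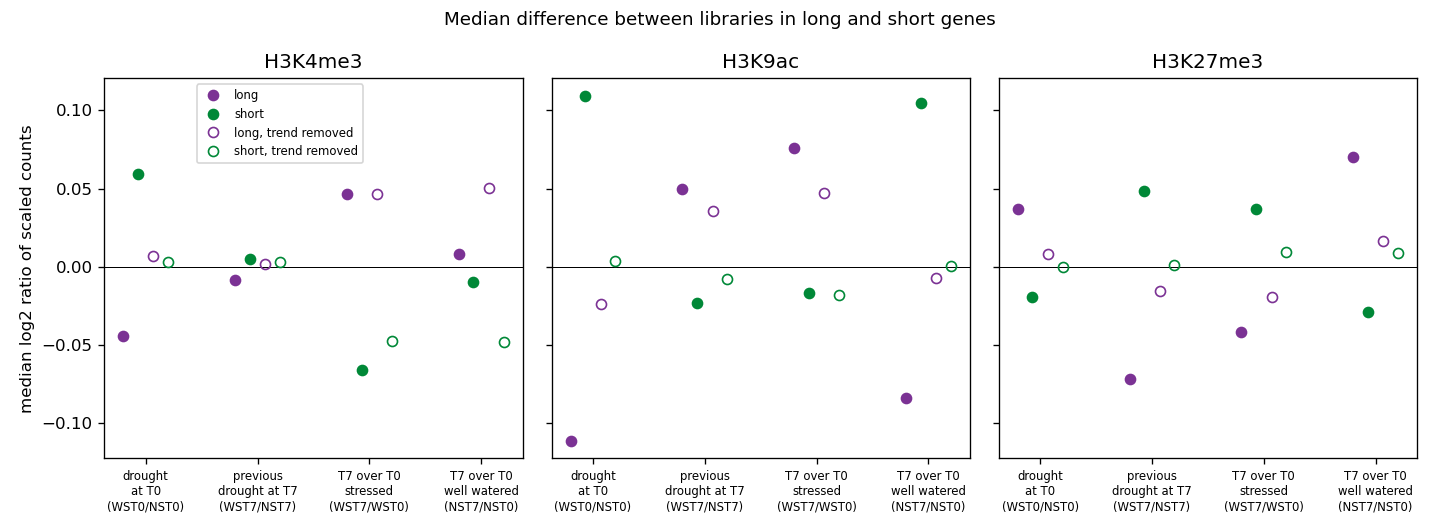
Median log2 ratio between libraries at long and short genes for each mark and comparison, as scaled (filled) and with the trend along enrichment subtracted (open). The H3K9ac medians of -0.11 at long and 0.11 at short genes for WST0 over NST0 come close together when the trend is subtracted, whereas those of H3K4me3 over time are then 0.09 apart in stressed and 0.10 in well-watered plants, against 0.11 and 0.02 as scaled.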

How the data were processed

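ChIP-seq libraries of 3 marks in 4 groups and 1 whole-chromatin library were used, as raw read counts per gene, not normalized, deposited by the authors per the labels. CASAVA 1.8 and Bowtie2 with the genome B73 RefGen_v4 are named per the submitters' processing notes. No source used here gives the counting program, the count window of each mark or whether duplicates were removed, and duplicates left in would make the intervals too narrow. The members, lists and tests were chosen with earlier results of these data known.

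Counts were scaled by TMM, and the additive model was fitted over all features (edgeR 4.0.16, limma 3.58.1, R 4.3.3; DESeq2 1.42.0 as alternative) after the steps were tested on simulated data. Ratios, shares and plots used numpy 2.4.6, scipy 1.17.1, pandas 2.3.3 and matplotlib 3.10.9. Log2 ratios carry 0.5 counts in each library. The running median used 50 bins of enrichment. Genes were named by a rule: the extremes of ratio and level, those nearest the limit of 10, the largest and smallest ratio per mark and comparison among genes meeting the rule of size, the lowest p per direction, and genes meeting the rule for 2 marks or at both times. Of the 2636 IDs, 0 were found in the reference table, which belongs to another assembly. Other settings tried were size factors, filters, background windows, enrichment limits, the ratio limit and the window range.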

Additional observations from a re-analysis of the deposited data

Results flagged for a closer look

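At Zm00001d005804 the change of H3K4me3 over the 7 days went in opposite directions with watering. The log2 ratio was -1.03 in stressed plants (WST7 over WST0) and 0.64 in well-watered plants (NST7 over NST0), a difference of -1.67. The counts were 141 in WST7, 114 in NST7, 133 in WST0 and 120 in NST0, in libraries of unequal depth. The gene was picked out because its single library pairs moved in opposite directions, both past the rule of size, and the difference itself was not tested. No group has enough libraries for a search for outlying samples.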

How the results depend on the processing

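The 36 results were recomputed in 102 alternatives, of which 64 stayed close in value, 35 moved and 3 reversed; the causes were not tested. In 1 of the 64, H3K4me3 in WST0 over NST0 with the trend subtracted, the long genes meeting the rule of size changed from mostly lower to mostly higher (10 higher and 7 lower). At a ratio of 20 or more, the log2 level of long over short genes was 2.39 for H3K4me3 and 4.32 for H3K27me3, and with 60 to 100 window counts it was 2.95 for H3K4me3 and 1.40 for H3K9ac. The marked share of long genes was 10.2%, 0% and 100% for H3K4me3, H3K9ac and H3K27me3 with the other background window, and 75.4%, 4.10% and 0.114% with a 4-fold limit.

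The remaining values are median log2 ratios, long minus short, for WST0 over NST0, WST7 over NST7, WST7 over WST0 and NST7 over NST0. With the trend along enrichment subtracted they were 0.00387, -0.00102, 0.0938 and 0.0984 for H3K4me3 (the first reversed), -0.0278, 0.0439, 0.065 and -0.00751 for H3K9ac and 0.00851, -0.0163, -0.029 and 0.00743 for H3K27me3. Without a filter on counts, H3K4me3 gave -0.179 for WST0 over NST0 and -0.0894 for NST7 over NST0 (reversed), and H3K27me3 gave -0.0124 (reversed), -0.0986, -0.0682 and 0.0697. At a ratio of 20 or more, H3K4me3 gave -0.0865 for WST0 over NST0, H3K9ac 0.109 for WST7 over NST7, and H3K27me3 -0.131 for WST7 over NST7 and 0.119 for NST7 over NST0.

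With the trend subtracted, the long genes meeting the rule of size were 10 for H3K9ac in WST0 over NST0 (5 higher and 5 lower), 9 in NST7 over NST0 (4 and 5), and for H3K27me3 7 in WST7 over NST7 (3 and 4) and 5 in NST7 over NST0 (2 and 3). DESeq2 called 0 long genes for H3K4me3 over time, as it called 0 of all 35654 features. Without a filter, edgeR called 1 of 2636 long genes for H3K27me3 over time, the only call among 43529 features.

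No paired analysis was possible because the labels give no replicate numbers and each group has 1 library per mark. Leaving out a library leaves the additive model without residual degrees of freedom, so that was not run. Depth limits H3K9ac most. The intervals cover counting error only, and the whole-chromatin library served all groups.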
